A study of Gallus gallus with 6 samples.

Results

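Genes of lymphocyte trafficking were examined in DT40 cells. DT40 is a cultured B cell line from chicken whose immunoglobulin genes go on diversifying. The set holds 10 genes, chosen by symbol in the deposited gene tables: the transcription factor gene KLF2, the chemokine receptor genes CXCR5, CXCR4 and CCR7, the lipid-ligand and metabolite receptor genes P2RY8, S1PR1 and GPR183, and the integrin genes ITGA9, ITGA4 and ITGB1. Each of the 10 symbols matched 1 row of the 17108 Ensembl genes. RNA was sequenced from 3 independent cultures of wild type cells, labelled Clone 18, and from 3 of cells labelled Bach2-/- (Bach2KO). Both genotypes were grown in the same serum-supplemented RPMI medium. Bach2 represses transcription in B cells, and the study, by its title, links the protein to gene conversion and somatic hypermutation of immunoglobulin genes. The labels do not say how many knockout clones were used, and the deposited column names of the knockout libraries share the stem Bach2ko1. If they come from 1 clone, the effect of the genotype and a property of that clone cannot be told apart. All 3 wild type libraries carry the label Clone 18, so a property particular to those cells cannot be told apart from the genotype either.

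B cells find their place in lymphoid tissue by reading gradients of chemokines, lipids and oxysterols through G protein-coupled receptors, and by holding on to matrix and neighbouring cells through integrins. CXCR5 draws B cells to follicles, CXCR4 to stroma and the germinal centre dark zone, and CCR7 to the border with the T cell zone. GPR183 (EBI2) responds to oxysterols, S1PR1 guides exit into blood and lymph, and P2RY8 is known in human B cells to confine them to the germinal centre. KLF2 is a zinc finger transcription factor that in mouse lymphocytes promotes S1PR1 expression and restrains recruitment. These roles come mostly from mouse and human and are given as background, not as results of these libraries.

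The deposited counts summed to between 8999010 and 20647281 per library. In the knockout libraries the targeted gene, BACH2, had 34, 61 and 50 counts, against 135, 87 and 54 in wild type, or 2.85 ± 0.457 against 6.35 ± 0.251 CPM (SD, n = 3 each), that is, counts scaled to library depth. Its log2 fold change was fitted at -1.16 ± 0.20 (SE), with an edgeR adjusted p of 0.00144. Reads thus remained on the gene model in every knockout library, at levels below those of all wild type libraries. Of 8 table rows for B cell markers, all exceeded 1 RPKM in at least 1 library, and their summed level was 999 to 1058 RPKM in wild type and 1028 to 1060 RPKM in the knockout. RPKM are the authors' counts scaled to gene length and library depth, the scale used here to compare genes with each other. Markers of other cells were not all absent. The 8 T cell rows summed to 162 to 202 RPKM in wild type and 111 to 138 RPKM in the knockout, mostly from CD3D, with CD4 and CD28 at 0. The 4 macrophage rows summed to 24.3 to 32.0 and 9.59 to 12.3 RPKM, nearly all from CYBB, with MARCO at 0 and CD14 and TLR4 below 1 RPKM. The 6 fibroblast, 5 endothelial, 3 erythroid and 2 thrombocyte rows each summed to at most 3.18 RPKM in any library, with COL1A1, COL3A1, CDH5, KDR and GP9 among those at 0. These are differences in marker RNA, mostly of CD3D and CYBB, within a cultured B cell line. Their part in the results below was not tested. In bulk RNA, fewer cells that express a gene and less RNA per cell cannot be told apart. The first principal component separated the genotypes and held 72.6% of the variance, and on the second, knockout replicate 1 lay on the other side from knockout replicates 2 and 3.

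Of the 10 trafficking genes, 5 were called lower in the knockout and 1 higher. Genotype was tested over all 9159 genes that passed a count filter with edgeR's two-sided quasi-likelihood test, and adjusted p-values below are Benjamini-Hochberg values over all of them. Of the 9 genes of the set that passed the filter, KLF2, CCR7, CXCR5, P2RY8 and ITGA9 were called lower at an adjusted p under 0.05. ITGB1 was called higher, and CXCR4, ITGA4 and S1PR1 were not called. Of all tested genes, 18.0% were called lower and 12.7% higher. The 10th gene, GPR183, had too few counts for the filter. KLF2 passed the filter through its wild type libraries only, so that it could enter the test only with a difference. KLF2, ITGA9, CCR7 and P2RY8 were at least 2-fold lower, as were 5.31% of all tested genes. All 3 knockout values lay under all 3 wild type values for 7 of the 10 genes, of which 6 were tested, and over them for ITGB1; among all tested genes the shares were 24.8% and 21.4%, or 46.2% in either direction. None of the 10 genes lies on chromosome 3 in the GRCg7b assembly. The 688 tested genes placed there had a median log2 fold change of -0.45, against 0.023 for the other tested genes.

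**Figure D1:**
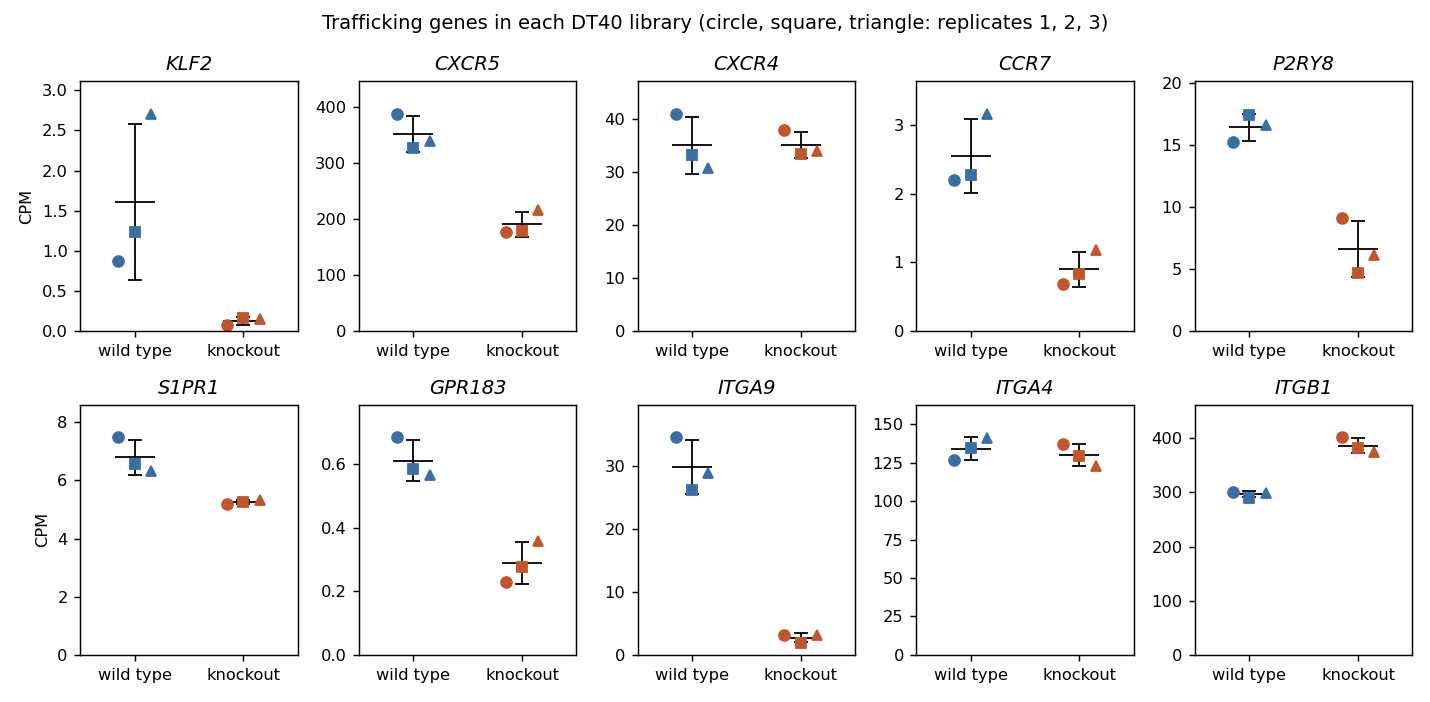
Level of each of the 10 trafficking genes in CPM (vertical axes, linear, from 0) in the 3 wild type (blue) and 3 knockout (orange) libraries, with the mean and SD of each genotype in black. The genotypes overlap for CXCR4 and ITGA4, ITGB1 is higher in every knockout library, and the other 7 genes are lower in every knockout library.

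KLF2 was close to the detection limit in the knockout. It had 18, 17 and 24 counts in wild type replicates 1, 2 and 3 and 1, 3 and 3 counts in the knockout replicates. Scaled to depth, that is 0.880, 1.24 and 2.71 CPM in wild type and 0.0765, 0.166 and 0.154 CPM in the knockout. The wild type libraries spread widely, with an SD of 60.2% of their mean, and wild type replicate 3, the shallowest library, held the highest value. No knockout library reached the lowest wild type value. Taken over the summed counts, 59 against 7, wild type exceeded the knockout 9.92-fold, with a 95% interval of 4.53 to 25.7 that covers counting error only. The fit gave a log2 fold change of -3.35 ± 0.63 (SE, n = 3 each; edgeR adjusted p = 0.00243), and without wild type replicate 3 it was -2.85 (adjusted p = 0.00803). At a wild type mean of 0.741 RPKM, KLF2 stood above only 28.5% of the genes that had any count.

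Among the chemokine receptors, CXCR5 was by far the most abundant and fell to 54.3% of its wild type level. It had 388, 327 and 339 CPM in wild type and 177, 179 and 216 CPM in the knockout. The lowest wild type library was well above the highest knockout library, knockout replicate 3. The difference was -0.88 ± 0.096 in log2 units (SE), with a 95% interval of -1.09 to -0.67 and an edgeR adjusted p of 7.55e-05. In RPKM, CXCR5 stood above 98.0% of genes with a count in wild type and 95.8% in the knockout.

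CXCR4, the receptor of CXCL12, did not pass the test. Its values were 41.0, 33.2 and 30.8 CPM in wild type and 37.8, 33.4 and 34.0 CPM in the knockout. All 3 knockout libraries fell inside the range of the wild type libraries. Its fitted difference was -0.010 ± 0.12 on the log2 scale (SE), edgeR's adjusted p was 0.956, and the 95% interval of -0.26 to 0.24 corresponds to 0.833 to 1.184 times the wild type level. The RPKM ratio of CXCR5 to CXCR4 was 14.4, 15.04 and 16.8 in wild type and 7.12, 8.19 and 9.70 in the knockout. These ratios did not overlap; an exact two-sided permutation test gave p = 0.1, the smallest value that 3 against 3 libraries allow.

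CCR7 fell from a low level, with 45, 31 and 28 counts in wild type and 9, 15 and 23 in the knockout. In CPM these were 2.20, 2.26 and 3.16 against 0.688, 0.830 and 1.181. The knockout values lay below every wild type value, and knockout replicate 1 was the lowest. That is a 2.69-fold lower level, or -1.43 ± 0.33 in log2 units (SE), with an edgeR adjusted p of 0.00753. Its 95% interval on the log2 scale, -2.15 to -0.71, was wide beside that of CXCR5.

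Other chemokine receptors were scarce. Of 15 table rows on a list of chemokine receptors, 5 passed the filter. Of these 5, 2 were called lower, CXCR5 and CCR7, and none higher, beside 18.0% lower and 12.7% higher of all tested genes. The median log2 fold change of the 5 was -0.010, against -0.0014 over all tested genes. Over the alternatives the list median ran from -0.57 to 0.076. The value of -0.57 came from the fit without a filter, which took in all 15 rows. The remaining ones of the 5 were CXCR4, the scavenging receptor gene CXCR7 (0.13 ± 0.28) and CCR8 (0.046 ± 0.36). For these edgeR gave adjusted p-values of 0.956, 0.759 and 0.937. None was higher at an unadjusted p under 0.05, and DESeq2 called none higher either. Testing was also limited to genes that averaged 1 RPKM or more; CCR7 then dropped out and 1 receptor, CXCR5, was called lower. Below the filter, CX3CR1, the fractalkine receptor gene, had 10, 5 and 5 counts in wild type and 2, 3 and 0 in the knockout. It was picked after its values were seen. In the other direction, mean CPM went from 0.0406 to 0.257 for ACKR2 and from 0.0620 to 0.226 for CCR10. These rested on 15 and 13 counts in all, and the genotypes did not overlap. None of the 14 rows on a list of chemokine ligands passed the filter, 5 of them had any count, and the row of CXCL12, the ligand of CXCR4, had 1 count in all 6 libraries.

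**Figure D2:**
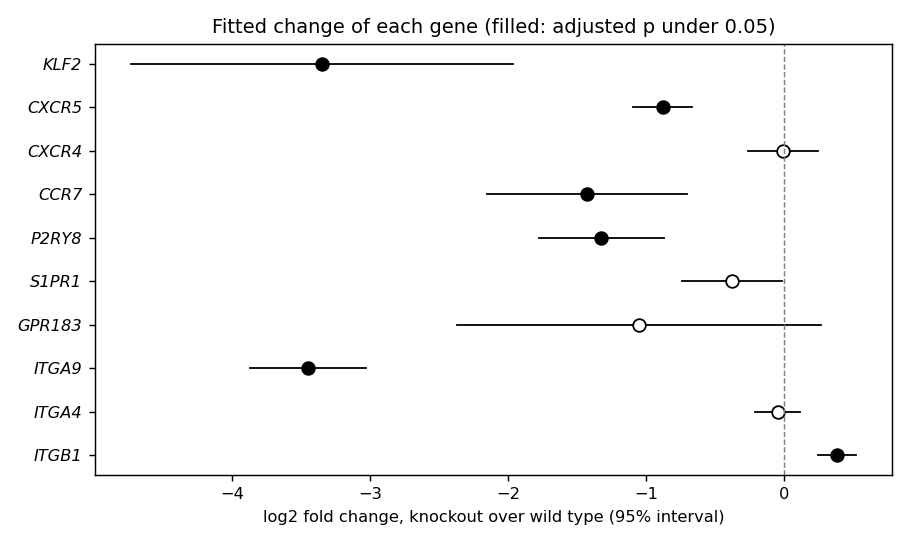
Fitted log2 fold change of knockout over wild type (dot) with its unadjusted 95% interval (line) for each gene; filled dots passed an adjusted p under 0.05, and GPR183 comes from the fit without a count filter. KLF2 and ITGA9 lie beyond -3, ITGB1 is the filled dot above 0 at 0.38, and the intervals of CXCR4, ITGA4 and GPR183 span 0.

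P2RY8, a receptor coupled to the G protein alpha-13 subunit in human B cells, fell 2.50-fold. It had 15.2, 17.4 and 16.6 CPM in wild type and 9.10, 4.70 and 6.11 CPM in the knockout. Wild type libraries were close together, whereas the knockout libraries had an SD of 33.8% of their mean, with replicate 1 highest. The fit gave -1.32 ± 0.20 in log2 units (SE; edgeR adjusted p = 0.000767), and -1.59 without knockout replicate 1.

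S1PR1, the sphingosine 1-phosphate receptor of lymphocyte egress, was lower in every knockout library but did not pass the test. It had 7.48, 6.57 and 6.32 CPM in wild type and 5.20, 5.25 and 5.34 CPM in the knockout, from 56 to 153 counts per library. The knockout libraries were tightly grouped just below the lowest wild type library. The log2 fold change of -0.38 ± 0.16 (SE) had an unadjusted p of 0.0425 and an edgeR adjusted p of 0.106, and its interval of -0.74 to -0.015 allows from 0.599 to 0.990 times the wild type level.

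GPR183, the oxysterol receptor, had 14, 8 and 5 counts in wild type and 3, 5 and 7 in the knockout. That corresponds to 0.684, 0.584 and 0.565 CPM against 0.229, 0.277 and 0.360 CPM, again without overlap. From the summed counts, 27 against 15, wild type was 2.12-fold higher, with a counting interval of 1.09 to 4.29. In a fit of all 12259 genes with a count, where 14.7% were called lower and 10.4% higher, its log2 fold change came to -1.05 ± 0.63 (SE), and edgeR's adjusted p to 0.257. In limma over the same genes it passed on log2(RPKM + 1), with a difference of -0.24 and an adjusted p of 0.0221. It did not pass with a pseudocount of 0.1 (limma adjusted p = 0.0535).

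The wider list of receptors for lipids and nucleotides that position lymphocytes had 18 rows, of which 7 passed the filter. Of these 7, 6 were called lower, 0 higher and 1 (S1PR1) was not called, beside 18.0% lower and 12.7% higher of all tested genes. Without the set members P2RY8 and S1PR1, 5 of 5 were lower. The median of the 7 was -1.25, and -1.31 to -0.99 over the alternatives. None of the 7 was higher at an unadjusted p under 0.05 in edgeR, and DESeq2 also called none higher. LPAR4, a lysophosphatidic acid receptor, had 40, 23 and 18 counts in wild type and 0, 0 and 4 in the knockout, a 23.8-fold difference of summed counts with a counting interval of 8.96 to 89.6. All knockout counts came from replicate 3; without that library the fitted log2 fold change went from -4.45 to -7.80, which is no bound because the remaining knockout libraries were at 0. LPAR4 passed the filter through wild type only, so that it could enter the test only with a difference. It is nevertheless counted in the 6 of 7 and in the 5 of 5. GPR18, a lipid-sensing orphan receptor, fell from 18.0 to 6.72 CPM (SDs of 1.67 and 1.076, n = 3 each), a log2 fold change of -1.44 ± 0.15 (SE). LPAR5, a second lysophosphatidic acid receptor, fell from 76.5 ± 21.2 to 32.5 ± 2.32 CPM. P2RY10 (-0.96 ± 0.077) and GPR174 (-0.66 ± 0.13), which in human and mouse respond to lysophosphatidylserine, complete the list and were named after their values were seen. The S1PR4 row had 6 counts in all libraries, and that of S1PR3 had none.

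Of the integrin genes, ITGA9 showed the largest fitted decrease of the 10 genes, close to that of KLF2 but at a much higher count. ITGA9 encodes the alpha-9 subunit, which pairs with the beta-1 subunit. It had 706, 358 and 255 counts in wild type and 42, 35 and 61 in the knockout, or 34.5, 26.1 and 28.8 CPM against 3.21, 1.94 and 3.13 CPM. Every knockout library was far below every wild type library, with knockout replicate 2 lowest. The fold change was 10.9-fold (log2 -3.45 ± 0.19, SE, edgeR adjusted p = 8.04e-07), with a 95% interval of -3.87 to -3.03. By log2 fold change it ranked 76th from the lowest of the 9159 tested genes. KLF2 ranked 78th, but it passed the filter through wild type only, and its rank rests on 1, 3 and 3 knockout counts.

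ITGA4, which encodes the alpha-4 subunit, another partner of beta-1 and the VCAM1-binding chain of lymphocytes, did not pass the test. It had 127, 135 and 141 CPM in wild type and 137, 129 and 123 CPM in the knockout, and the ranges of the genotypes overlapped. Its difference was -0.047 ± 0.074 in log2 units (SE), edgeR's adjusted p was 0.663, and the interval of -0.21 to 0.11 allows 0.865 to 1.083 times the wild type level.

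ITGB1, the shared beta-1 chain, rose 1.30-fold. It had 300.5, 289.9 and 298 CPM in wild type and 401, 383 and 374 CPM in the knockout. Both genotypes were tight, and all knockout libraries exceeded all wild type libraries. In log2 units the rise was 0.38 ± 0.063 (SE; edgeR adjusted p = 0.00119).

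The integrin chains were also set against each other within each library. ITGA9 made up 23.2%, 17.7% and 18.4% of the summed ITGA9 and ITGA4 RPKM in wild type, and 2.53%, 1.63% and 2.75% in the knockout. The RPKM ratio of ITGA4 to ITGB1 was 0.283 ± 0.0176 in wild type and 0.210 ± 0.00433 in the knockout (SD, n = 3 each), without overlap. Exact two-sided permutation tests of the ratios of ITGA9 to ITGA4, ITGA9 to ITGB1 and ITGA4 to ITGB1 each gave p = 0.1, which is the smallest possible. They were 3 of 5 ratios computed, and each of the 5 gave that same p, also after adjustment. The others were CXCR5 to CXCR4, given above, and CXCR5 to CCR7. The ratio of CXCR5 to CCR7 rose from 581 ± 141 in wild type to 890.5 ± 150 in the knockout (SD, n = 3 each). The means of all other ratios fell.

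Of 15 integrin subunit rows, 10 passed the filter. Of these 10, 3 (30%) were called lower, 1 (10%) higher and 6 were not called. The shares over all tested genes were 18.0% lower and 12.7% higher. The list median was 0.021 (-0.083 to 0.095 over the alternatives). Besides ITGA9, the lower ones were the collagen-binding subunit ITGA2 (-0.84 ± 0.22) and ITGAV (-0.46 ± 0.15), both smaller changes (log2, SE). ITGA2 lost its call without wild type replicate 2 (edgeR adjusted p = 0.0777). ITGAV lost it without any of the 3 wild type libraries, without knockout replicate 2 and without knockout replicate 3, with adjusted p-values of 0.0872 to 0.110. It also lost it with the replicate block (0.0526), in DESeq2 (0.0592) and in limma with a pseudocount of 0.1 (0.0606). The count of lower subunits was 1 without wild type replicate 2, and 3 subunits were higher without knockout replicate 1. ITGB2, the leukocyte beta-2 chain, was not called (0.22 ± 0.10, edgeR adjusted p = 0.136).

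**Figure D3:**
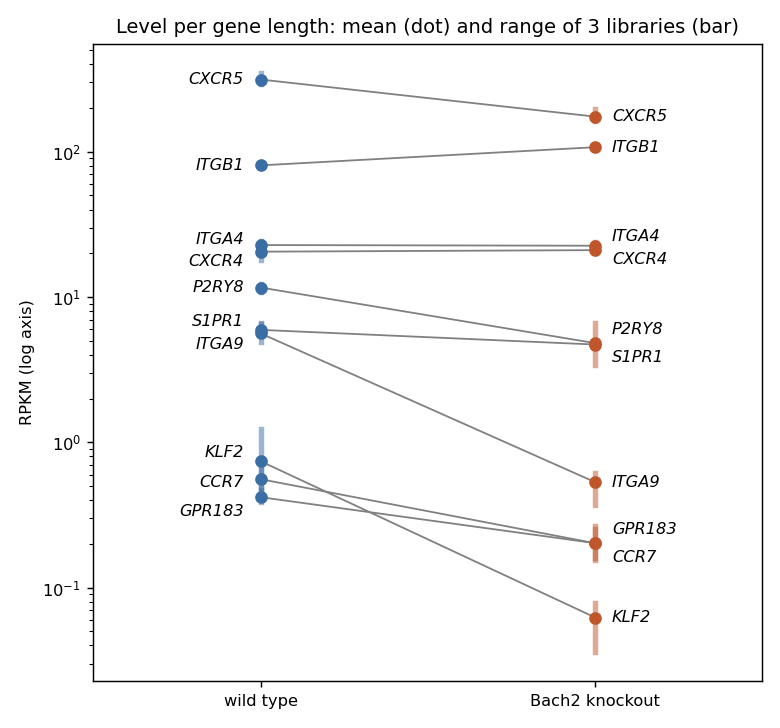
Level per gene length in RPKM (vertical axis, log scale) of the 10 genes in wild type and knockout libraries; dots are means, bars the range of 3 libraries, and grey lines join the same gene. CXCR5 and ITGB1 lead in both genotypes, and the lines of ITGA9 and KLF2 drop most steeply.

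On the length-scaled RPKM scale the order of the genes in wild type was CXCR5 (314 ± 30.4 RPKM, SD, n = 3), ITGB1 (80.6 ± 1.81), ITGA4 (22.8 ± 1.14), CXCR4 (20.5 ± 3.23), P2RY8 (11.6 ± 0.728), S1PR1 (5.94 ± 0.565), ITGA9 (5.62 ± 0.835), KLF2 (0.741 ± 0.444), CCR7 (0.558 ± 0.116) and GPR183 (0.419 ± 0.0464). The libraries of neighbours overlapped for ITGA4 and CXCR4, for S1PR1 and ITGA9, and for KLF2 and CCR7, so these pairs were not separated. Nor were KLF2 (0.408 to 1.24 RPKM) and GPR183 (0.386 to 0.472 RPKM), which are not neighbours in that order. In the knockout, CXCR5 still led at 174 ± 20.4 RPKM, but its lead over ITGB1 shrank from 3.90-fold to 1.62-fold. P2RY8 (4.82 ± 1.63) and S1PR1 (4.71 ± 0.0635) overlapped there, as did ITGA4 and CXCR4, and GPR183 and CCR7. KLF2 moved to the last place at 0.0623 ± 0.0228 RPKM, below every library of the other genes.

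Genes whose pattern over the 6 libraries was most like that of a set member were found by Pearson correlation of log2 CPM. The 3 closest to KLF2 were ADCK3 (r = 0.997), FNDC3B (r = 0.996) and ABCB10 (r = 0.992). The 3 closest to ITGA9 were MRPS18A (r = 0.999), HSPA2 (r = 0.999) and MOCS1 (r = 0.998). With 2 genotypes, such values arise for many genes that are lower in the knockout: 216 of 9158 genes exceeded an r of 0.95 with KLF2 and 624 with ITGA9. The 6 genes also changed by other amounts, from -0.28 for ABCB10 to -1.71 for HSPA2 on the log2 scale.

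KLF2 belongs to a family of Krüppel-like factors of which 7 rows of 14 passed the filter. Of these, 3 were called lower, 2 higher and 2 were not called, beside 18.0% lower and 12.7% higher of all tested genes. The list median was -0.25 and ran from -0.46 to 0.27 over the alternatives. KLF2 itself is among the 3 and entered through wild type only; without it, 2 of 6 were lower and 2 higher. KLF13 fell from 4.24 to 0.863 CPM (SDs of 0.646 and 0.394, n = 3 each), a log2 fold change of -2.31 ± 0.34 (SE). KLF11, named after its value was seen, fell by 0.46 ± 0.090 on the log2 scale and lies on chromosome 3, close to the median there. KLF9 (1.195 ± 0.32) and KLF10 (0.58 ± 0.19) rose. KLF9 lost its call when wild type replicate 1 or knockout replicate 2 was left out (edgeR adjusted p = 0.0892 and 0.0640). KLF10 lost it when any wild type library or knockout replicate 2 or 3 was left out (0.0607 to 0.111), so that the number of higher genes was 0 without wild type replicate 1 or knockout replicate 2 and 1 without wild type replicate 2, wild type replicate 3 or knockout replicate 3. It was 1 in the limma fits, where KLF10 had adjusted p-values of 0.0665 and 0.0686, and 3 without knockout replicate 1.

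Upstream of KLF2, the list of its known regulators had 10 tested genes. Of these, 3 (30%) were called lower, 1 (10%) higher and 6 were not called. Over all tested genes the shares were 18.0% lower and 12.7% higher. The list median was -0.17 (-0.21 to -0.13 over the alternatives). These counts and the median take no account of the direction in which each regulator acts on KLF2. Whether any of these changes bears on KLF2 was not tested. PIK3CD, the catalytic phosphoinositide 3-kinase delta subunit, fell by 0.52 ± 0.066 (log2, SE). MEF2D, a transcription factor of the MEF2 family, fell by 0.48 ± 0.091. FOXO1, which promotes KLF2 expression in mouse lymphocytes, fell from 43.3 ± 2.72 to 35.0 ± 1.97 CPM (SD, n = 3 each). That call was lost without any of the wild type libraries and without knockout replicate 3 (edgeR adjusted p = 0.0551 to 0.0957). MAP2K5, the kinase above ERK5, rose by 0.26 ± 0.079, was named after its value was seen, and lost its call without any of the wild type libraries (0.0788 to 0.101) and with the replicate block (0.0562); the list held 0 higher genes without wild type replicate 2 or 3, and 2 with libraries scaled by their totals.

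Downstream of the receptors, 22 genes of G protein coupling and desensitisation were tested. Of these, 6 (27.3%) were called lower, 2 (9.09%) higher and 14 were not called. The shares over all tested genes were 18.0% and 12.7%. The list median was -0.25 (-0.27 to -0.10 over the alternatives). ARHGEF12 is an exchange factor that acts downstream of the alpha-12 and alpha-13 subunits. It had 29, 26 and 11 counts in wild type and 0, 5 and 2 in the knockout. ARHGEF12 passed the filter through wild type only, so that it could enter the test only with a difference. It is nevertheless counted in the 6. RGS1, which damps chemokine receptor signalling, fell from 4.64 to 0.979 CPM (SDs of 0.474 and 0.573, n = 3 each), a log2 fold change of -2.18 ± 0.34 (SE). ADRBK2, a receptor kinase, fell by 0.82 ± 0.093 on the log2 scale. GNA13, the alpha-13 subunit to which P2RY8 couples in human cells, was not called (0.095 ± 0.10, edgeR adjusted p = 0.507). GNAI2, the main inhibitory alpha subunit behind chemokine receptors in lymphocytes, was not called either (-0.26 ± 0.096, edgeR adjusted p = 0.0598). The higher genes, GRK4 (0.52 ± 0.15) and a row shared by GNAI3 and GNAI1 (0.44 ± 0.079), were named after their values were seen. GRK4 lost its call without wild type replicate 1 or 2 (0.0939 to 0.117), which left 1 higher gene in each of these fits, and 4 genes were higher with libraries scaled by their totals and in the limma fits.

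Of 19 tested genes that switch integrins on or tie them to the cytoskeleton, 10 were called lower, 0 higher and 9 were not called. Over all tested genes the shares were 18.0% lower and 12.7% higher. The list median was -0.41 (-0.43 to -0.36 over the alternatives). At an unadjusted p under 0.05, 2 were higher in edgeR; DESeq2 called 0 of them higher, and edgeR 1 without knockout replicate 3. Of the 19, 4 lie on chromosome 3, among them PTK2B (-1.43 ± 0.12), a focal adhesion kinase relative, and FERMT1 (-1.11 ± 0.12), a kindlin. The others there were named after their values were seen. ITGB1BP1 was called lower (-0.42 ± 0.11), near the chromosome's median of -0.45, and lost its call without wild type replicate 2 or 3. RASGRP3 was not called (-0.28 ± 0.10). PTK2, the focal adhesion kinase itself, lies elsewhere and fell by 0.98 ± 0.15 in log2 units (SE; edgeR adjusted p = 0.000609). Talin, the protein that opens integrins, was not called for either gene (TLN1 -0.21 ± 0.12, TLN2 -0.051 ± 0.096; edgeR adjusted p = 0.199 and 0.723).

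Among other adhesion molecules and integrin ligands, 4 of 7 tested genes were called lower and 0 higher, with a median of -0.63. Of all tested genes, 18.0% were lower and 12.7% higher. Over the alternatives the list median ran from -0.94 to -0.42. The value of -0.94 came from the fit without a filter, which took in all 11 rows with a count. None of the 7 was higher at an unadjusted p under 0.05 in edgeR, and DESeq2 called none higher. The tetraspanin gene CD82 had 36, 40 and 21 counts in wild type and 5, 1 and 2 in the knockout. CD82 passed the filter through wild type only, so that it could enter the test only with a difference. It is nevertheless counted in the 4. MADCAM1, an adhesion molecule that binds alpha-4 beta-7 integrin in mammals, fell from 5.39 ± 0.119 to 1.84 ± 0.851 CPM, and CD44, a hyaluronan receptor, from 45.6 ± 3.44 to 29.4 ± 3.02 CPM (SD, n = 3 each). CD151, a tetraspanin that binds integrins, fell by 0.45 ± 0.064 on the log2 scale and was named after its value was seen. Other integrin ligand genes on the list did not pass the filter: VCAM1 had 4 counts over all libraries, FN1 had 16 and TNC had 0.

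In sphingosine 1-phosphate and oxysterol metabolism, 3 genes of 11 rows passed the filter. Of these, 2 were called lower and 0 higher, beside 18.0% lower and 12.7% higher of all tested genes. The list median was -0.45. Over the alternatives the list median ran from -1.43 to -0.27. The value of -1.43 came from the fit without a filter, which took in all 9 rows with a count. None of the 3 was higher at an unadjusted p under 0.05 in edgeR, and DESeq2 called none higher. SPHK1, which makes sphingosine 1-phosphate, fell by 0.45 ± 0.14, and a row shared by ADAMTS14 and SGPL1, of which SGPL1 degrades it, by 0.27 ± 0.075 (log2, SE). SPHK1 lost its call without any of the wild type libraries (edgeR adjusted p = 0.0611 to 0.106). The shared row lost it without wild type replicate 2 or 3 or knockout replicate 2 or 3 (0.0619 to 0.140), and 0 genes were called lower without wild type replicate 2 or wild type replicate 3 and in the limma fits (0.0527 to 0.0968). The number was 1 without wild type replicate 1 or knockout replicate 2. The oxysterol enzyme genes CH25H, CYP7B1 and HSD3B7 had 4, 0 and 1 counts in all.

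**Figure D4:**
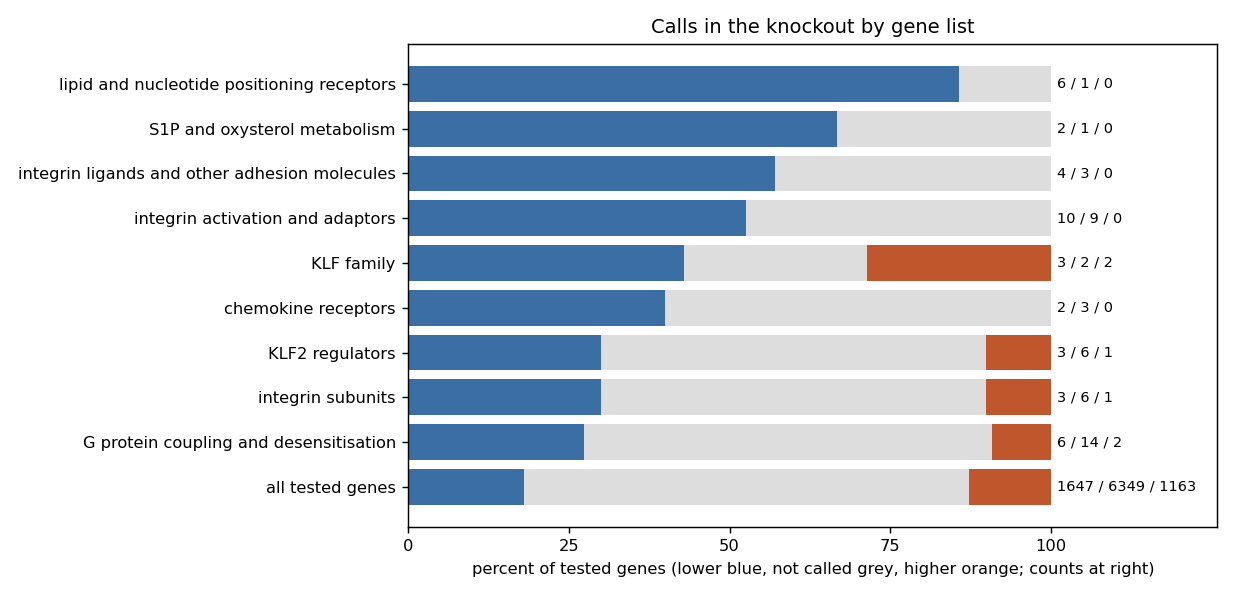
Share of tested genes called lower (blue), not called (grey) and higher (orange) in the knockout for the gene lists described in the text that had tested genes and for all tested genes; the numbers at the right are lower, not called and higher genes. All tested genes stand at 18.0% lower and 12.7% higher. Every list shown has a larger blue share, from 27.3% for G protein coupling and desensitisation to 85.7% for lipid and nucleotide receptors (6 of 7). The blue shares of these lists, of the KLF family and of the adhesion molecules each include 1 gene that passed the filter through wild type only. Such a gene could enter the test only with a difference. In S1P and oxysterol metabolism the number of lower genes ran from 0 to 2 over the alternatives. The orange share is larger for the KLF family only (28.6%).

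Leaving the 10 genes of the set aside, 99 genes on the pathway lists, 1 list not described here included, were tested, of which 40 were called lower, 6 higher and 53 were not called, with a median of -0.24. Of these 99 genes, 7 lie on chromosome 3 and 3 passed the filter through wild type only. That is 40.4% lower and 6.06% higher, beside 18.0% and 12.7% of all tested genes. Among the 8471 tested genes not on chromosome 3 the shares were 13.7% lower and 13.6% higher. The lists differ in level and overlap in function, and were chosen with earlier results of these data known, so that this is a description and not a test.

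**Figure D5:**
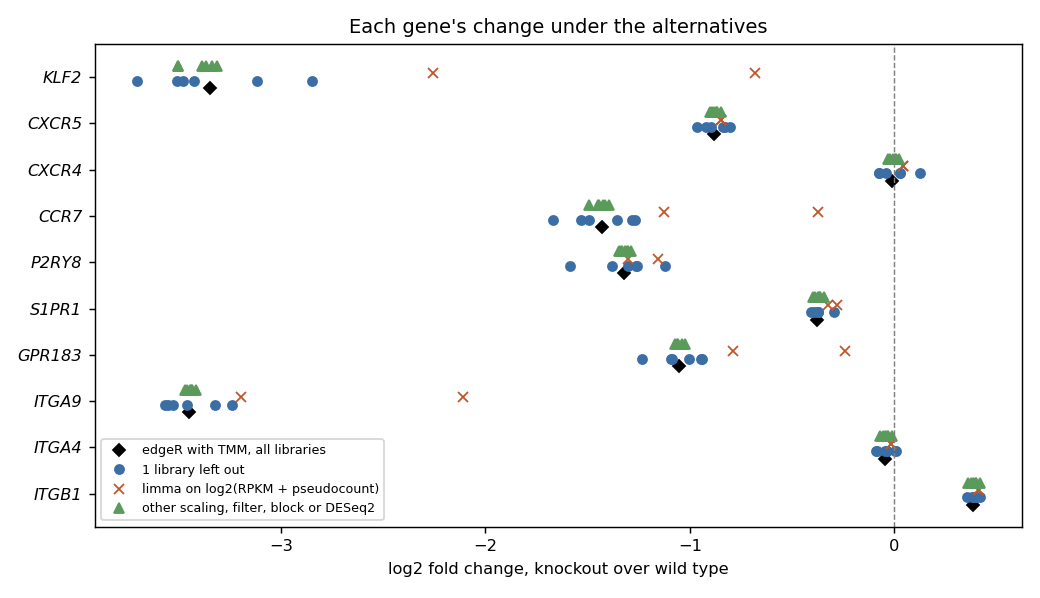
Log2 fold change of each gene (horizontal axis) in the edgeR fit of all libraries (black diamonds), with 1 library left out (blue circles), under another scaling, filter, block or DESeq2 (green triangles) and in limma fits of log2(RPKM + 1) and log2(RPKM + 0.1) (orange crosses). CXCR4 and ITGA4 scatter around 0, ITGB1 stays between 0.35 and 0.42, and the crosses of the low genes KLF2, CCR7 and GPR183 lie nearer to 0 than the count fits.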

How the data were processed

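The authors deposited 2 gene tables with 6 library columns each, all matched to a sample by name. One holds raw read counts per gene, deposited as whole numbers whose sums differ between libraries. The other holds RPKM as deposited by the authors; each value is the count times a constant per gene and per library. The submitters' processing notes name build galGal4 and, among the tools, Subread 1.5.0, TopHat2 2.1.0 and bcl2fastq 1.8.4 besides limma and edgeR; the role of each, the annotation and the use of strand are not given in the sources used here, so reads of overlapping genes or near-identical copies cannot be told apart.

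Counts were fitted in R 4.3.3 with edgeR 4.0.16: filterByExpr with defaults (9159 genes kept; 0.632 CPM in at least 3 libraries), TMM scaling, and the two-sided quasi-likelihood test (glmQLFit, glmQLFTest) of genotype over the 6 libraries with no covariate, at a Benjamini-Hochberg threshold of 0.05. GPR183 was read from the same fit on the 12259 genes with a count. CPM use TMM-adjusted totals of the tested genes. The SE is the log2 fold change divided by the square root of F, and intervals are 95%. Poisson-based intervals cover counting error only. A floor of 3 counts is 0.147 to 0.339 CPM per library. The p-values of the fits set the genotype difference against the spread between cultures, estimated with information shared over genes. They do not cover the spread between clones. Correlations used log2 CPM with a prior count of 2. Chromosomes come from a GRCg7b gene table (13400 of 14007 NCBI identifiers matched), whose build differs. The alternatives were DESeq2 1.42.0, other scalings and filters, limma 3.58.1 on log2(RPKM + 1 or 0.1), a replicate block and leaving out each library. The fits with other filters change which rows of a list enter its counts and median. No 2 libraries of a genotype agreed within sampling noise (chi-square over its degrees of freedom, 3.20 or more). The edgeR fit was tried on counts simulated with means and dispersions of these data, and limma on log2(CPM + 1) of those counts. The limma fits of RPKM and the other tests were not tried in this way.

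The members, the 11 pathway lists and the tests were chosen with earlier results of these data known. Named beyond the 10 members are up to 3 called genes per list with the largest absolute change, and the 3 genes most correlated with KLF2 and ITGA9; other names are marked or serve as context for a member. Values of 1 receptor gene and 1 pathway list are not reported here.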

Additional observations from a re-analysis of the deposited data

How the results depend on the processing

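Of the 9 genes that passed the filter, 5 were called lower and 1 higher in 14 of 15 alternatives. With testing limited to genes that averaged 1 RPKM or more, KLF2 and CCR7 dropped out, and 3 were lower and 1 higher. KLF2, CCR7, CXCR5, P2RY8, ITGA9 and ITGB1 kept direction and call in every alternative that tested them, with edgeR, DESeq2 or limma adjusted p-values of at most 0.0346 (CCR7 without wild type replicate 3). S1PR1 did not pass in any (adjusted p 0.0601 to 0.296). GPR183, below the filter, was read from fits of all 12259 genes with a count. It passed in limma on log2(RPKM + 1) alone (-0.24, adjusted p = 0.0221). That fit and its adjustment differ from those of the 5 lower genes, so GPR183 is not counted with them. A pseudocount of 1 shrinks low genes by construction: on log2(RPKM + 1), KLF2 stood at -0.68, CCR7 at -0.37 and ITGA9 at -2.11. CXCR4, near 0, changed sign with DESeq2 (0.0073), library totals (0.025), RLE scaling (0.0047), limma with 0.1 (0.044) and 1 (0.042) and the replicate block (0.0081), and with 1 library left out ran from -0.075 to 0.13; ITGA4 then ran from -0.089 to 0.0067. Over all genes, the number called higher was 648 to 1445 with 1 library left out, of 1163, being lowest without a wild type library (654, 648 and 656) or knockout replicate 2 (729), and the number called lower was 1180 to 1925, of 1647; the cause was not tested. Same-numbered libraries did not deviate together (r = 0.0036, 0.093 and -0.021), and the replicate block gave 1567 lower and 1009 higher genes, with 5 and 1 in the set. Depth limits the genes with few counts: knockout libraries held 1 to 3 counts of KLF2 and 3 to 7 of GPR183.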

Other observations

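Some trafficking genes had too few counts for the filter, and their values were picked after they were seen. ITGB5, an integrin beta subunit, had 13, 12 and 10 counts in wild type and 0, 4 and 0 in the knockout. PARVB, an adaptor that links integrins to actin, had 8, 5 and 3 counts in wild type and 0 in every knockout library. CCL20, a chemokine ligand, had 11, 6 and 5 counts against 1, 5 and 5. The genes named here were lower in the knockout, whereas ACKR2 and CCR10, given above, were higher.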
